A study of Mus musculus with 12 samples.

Results

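The fast skeletal sarcomere isoforms are 10 genes whose proteins build the contractile apparatus of fast-twitch muscle fibres, and they were chosen by gene name, with every probe whose name in the array files equals Myh1, Myh2, Myh4, Mylpf, Myl1, Tnnt3, Tnni2, Tnnc2, Actn3 or Mybpc2. They are 10 of the 27373 gene names on the array and were read by 17 probes. The RNA came from whole back skin of male C57BL/6J mice, bought at 8 weeks of age and shaved. The backs then received 200 µL per day of 3% MXD (minoxidil, a hair growth drug used as the positive control), 10% N-CE (a cell extract of the cactus Notocactus ottonis) or VC, the vehicle of propylene glycol, ethanol and water that carried both agents. Skin was taken at 1W, 2W and 3W. The authors combined the RNA of 6 mice per group. Every treatment at every week is thus a single pool, and the pool of MXD and the pool of N-CE of a week were each hybridized against the same VC pool on 2 arrays with exchanged dyes. That gives 6 comparisons on 12 arrays. The SD given here is over those 2 arrays and measures the array reading, not the spread between mice.

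In mouse back skin a thin sheet of striated muscle, the panniculus carnosus, lies under the fat, and a whole skin sample can carry it along. In striated muscle the thick filament of myosin pulls on the thin filament of actin, and each fibre type uses its own set of myosin and troponin genes. Myh4, Myh1 and Myh2 encode the heavy chains of type IIb, IIx and IIa fibres, listed here from the fastest to the slowest of the fast types. Myl1 and Mylpf are the essential and regulatory light chains bound to the neck of the myosin head, and Mybpc2 is the fast myosin-binding protein C of the thick filament. Troponin on the thin filament gates contraction by calcium: Tnnc2 binds calcium, Tnni2 inhibits and Tnnt3 anchors the complex to tropomyosin. Actn3 is the fast fibre alpha-actinin that crosslinks actin at the Z disc.

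The 3 heavy chain genes stand side by side on chromosome 11, in the RefSeq order Myh3, Myh2, Myh1, Myh4 and Myh8. By their brightest probes, their responses at 1W were not alike. Their promoters are shown as the 250 bases before the start of transcription, on the plus strand of GRCm38.p6 from RefSeq. A link between promoter letters and response was not tested. Capitals mark any CANNTG, the E-box, which reads the same on both strands, any TATAAA on either strand, and any match to the MEF2 motif on either strand. They lie at chr11:67170777-67171026 for Myh2, chr11:67199852-67200101 for Myh1 and chr11:67237562-67237811 for Myh4.
Myh2: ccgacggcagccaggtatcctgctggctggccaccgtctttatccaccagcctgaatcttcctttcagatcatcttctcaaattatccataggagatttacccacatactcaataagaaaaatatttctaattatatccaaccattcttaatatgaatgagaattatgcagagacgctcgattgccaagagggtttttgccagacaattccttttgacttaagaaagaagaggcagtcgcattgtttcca
Myh1: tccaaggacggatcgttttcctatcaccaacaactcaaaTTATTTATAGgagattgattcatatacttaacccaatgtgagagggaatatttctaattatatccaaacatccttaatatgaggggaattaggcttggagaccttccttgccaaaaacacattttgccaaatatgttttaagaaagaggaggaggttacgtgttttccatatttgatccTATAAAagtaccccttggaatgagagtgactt
Myh4: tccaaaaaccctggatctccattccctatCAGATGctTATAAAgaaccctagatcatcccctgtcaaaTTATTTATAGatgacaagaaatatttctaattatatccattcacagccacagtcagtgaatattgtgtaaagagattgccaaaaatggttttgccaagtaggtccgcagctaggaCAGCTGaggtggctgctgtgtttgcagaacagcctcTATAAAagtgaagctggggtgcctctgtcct

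The Myh4 and Myh1 windows each hold a TATAAA close to the start, from base 31 to base 26 before it in Myh4 and from base 32 to base 27 in Myh1, and each holds the same MEF2 match, whose letters contain a TATAAA on the other strand. The Myh2 window holds none of the 3 motifs. RefSeq gave a promoter for 7 of the 10 genes, and none was matched for Tnnt3, Tnni2 and Actn3. Among those 7, CANNTG was present in 5, against 66.0% of 27025 promoters of the same length. TATAAA was present in 3 of 7, against 13.0%, and the MEF2 motif in 2 of 7, against 1.73%. A match describes letters in a window and does not show that a factor binds there.

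The probes were 60 bases long, and 5 genes had more than 1. Of the 17 probes, 16 were well above background in every channel with a value. The remaining one, a Myh2 probe at mm9 chr11:66987588-66987647 with an accession that matched no symbol, had processed signals of 11.0 to 60.1. This dim probe was above background in 16 of 24 channels and is left out of the main values. It is still counted among the 17 probes of the fits and in the shares over all probes. The mean over the probes of a gene holds it where either group was above background. Each gene is represented by its brightest probe. The sequences below are shown because the probes of Myh2 disagree in one week and the heavy chains are close relatives. Those of Myh2 and Myh1 are their intron-spanning probes, not the brightest ones behind the main values, while that of Myh4 is its brightest. The Myh2 probe spans an intron between mm9 chr11:67006311-67006475, and the Myh1 probe spans one between chr11:67022830-67023932. The Myh4 probe lies at chr11:67072804-67072863, and all are on the plus strand.
Myh2 probe: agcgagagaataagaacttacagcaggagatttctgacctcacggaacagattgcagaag
Myh1 probe: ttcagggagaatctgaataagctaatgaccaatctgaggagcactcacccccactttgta
Myh4 probe: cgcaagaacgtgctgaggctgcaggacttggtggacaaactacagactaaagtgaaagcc

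The longest run that probes of different heavy chains share was 12 bases, between a Myh2 and a Myh4 probe, and the other pairs shared 5 to 7. Whether a probe also binds the RNA of a related heavy chain was not tested.

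All 10 isoforms fell with MXD at 2W, to a median of 0.366-fold of VC. The fall was shared across the thick filament, the thin filament and the Z disc, with single genes between Myh1 at −1.55 and Tnnt3 at −1.22 on the log2 scale of treated over VC. A gene was called when each array of the pair gave a deposited error-model P under 0.01, when the signs matched, and when the mean fold was above 1.5 or below 0.75. By this rule 11.0% of the 17130 gene names tested at MXD 2W were called lower, beside 10 of 10 isoforms, and 6.8% were called higher, beside none of them. By fold and direction without P the share called lower was 21.6%, again beside 10 of 10. The median log2 fold of the isoforms was −1.45 ± 0.11 (SD of the medians of 2 arrays), against 0.02 for all gene names tested. In bulk skin, fewer muscle cells and less RNA per muscle cell cannot be told apart, and neither can a different amount of muscle taken with the skin.

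**Figure D1:**
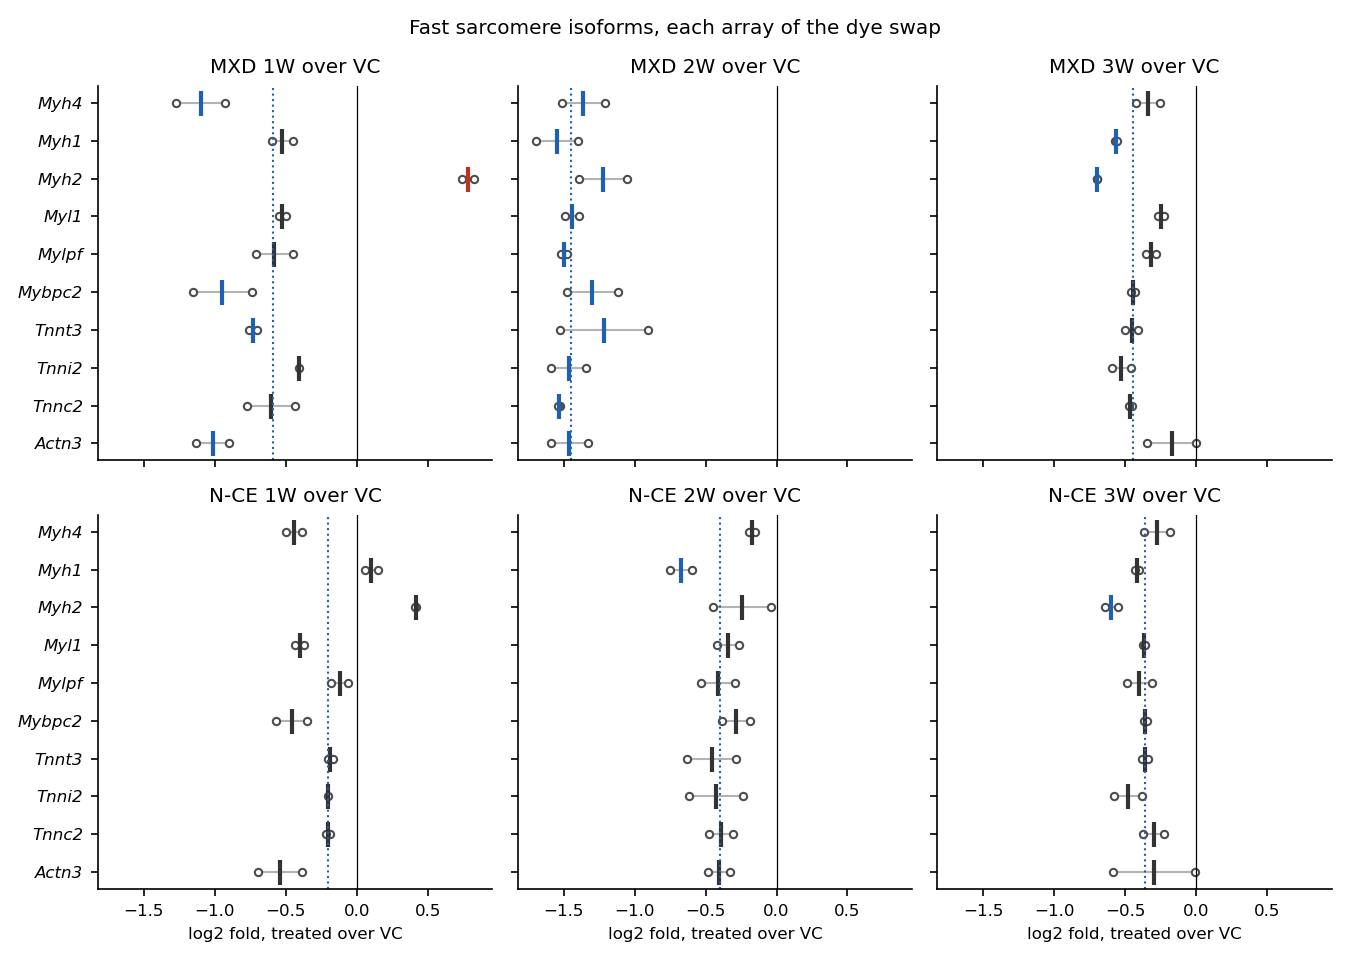
Log2 fold of each isoform over VC (x axis) in the 6 comparisons. Open circles are the 2 arrays of the dye swap, bars their mean, blue where called lower, red where called higher and black where not called, and the dotted line is the median of the 10 genes. At MXD 2W all 10 genes lie between −1.55 and −1.22, at MXD 1W Myh2 lies at 0.79 while the other genes lie below 0, and in the N-CE comparisons most genes lie between −0.67 and 0.

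The calcium switch fell as a unit at MXD 2W. In each pair of values that follows, the first array carried the treated RNA in Cy5 and the second in Cy3. Tnnc2, the calcium sensor, read −1.52 and −1.54, a mean of −1.53 ± 0.01 (SD, n = 2 arrays). Tnni2, the inhibitory subunit, read −1.34 and −1.59, and Tnnt3, the tropomyosin-binding subunit, read −0.91 and −1.53. The 2 arrays of Tnnt3 therefore differed more than those of its partners, and both still lay below the fold threshold with P of 3.7e-05 and 6.9e-10. A further Tnnt3 probe, also spanning an intron, read −1.29 on the 1 array where its spot was not marked as an outlier.

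The thick filament moved by similar amounts. Mylpf read −1.48 and −1.52 and Myl1 read −1.49 and −1.39, or 0.354-fold and 0.368-fold of VC. Mybpc2 read −1.12 and −1.48, a mean of −1.30 ± 0.26. Of the heavy chains, Myh1 read −1.40 and −1.70, Myh4 −1.21 and −1.51, and Myh2 −1.39 and −1.05. Actn3 at the Z disc read −1.33 and −1.59. By the brightest probes the means of the set spanned only 0.33 at MXD 2W, whereas they spanned 1.89 at MXD 1W. The upper end at MXD 1W is Myh2, whose probes gave opposite signs there.

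By their brightest probes the isoforms did not move together at MXD 1W. Myh4, Actn3, Mybpc2 and Tnnt3 fell, Myh2 was called higher, and the remaining genes did not pass the rule. Myh2 was the only gene with a mean above 0, and its intron-spanning probe lay at −0.30. Over all 17263 gene names tested there, 1.36% were called lower and 1.34% higher, beside 4 and 1 of the 9 isoforms that could be tested. Tnni2 could not be called at 1W, because its spot was marked as an outlier on 1 array of each comparison. The median of the 10 genes was −0.59 ± 0.18, with Tnni2 entered from its single array, against −0.01 for all gene names.

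Myh4, the heavy chain of the fastest fibres, read −0.93 and −1.27 at MXD 1W, a mean of −1.10 ± 0.24 or 0.467-fold of VC. Its other probe read −0.74 and −0.98. Both probes were called. Actn3 read −1.13 and −0.90, Mybpc2 −0.73 and −1.16, and Tnnt3 −0.70 and −0.76. Tnnc2, Mylpf, Myl1 and Myh1 had means between −0.60 and −0.52 and passed the fold threshold on both arrays, but their P missed 0.01 on 1 array. Without the P criterion the count called lower at MXD 1W was therefore 8 in place of 4, and the share of all gene names 5.94% in place of 1.36%.

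Myh2 stood apart in the same week. Its brightest probe, at mm9 chr11:67010910-67010969, read 0.74 and 0.83, a mean of 0.79 ± 0.06 or 1.72-fold of VC, with P of 5.5e-04 and 1.4e-04. A second probe read 0.84 and 0.68. This probe shares 18 bases with the first, so they are not independent readings. The intron-spanning probe of Myh2 printed above read −0.39 and −0.21, a mean of −0.30 ± 0.13, and was not called. The dim probe left out of the main values read 0.89 and 0.81 and was called higher, at processed signals of 28.8 to 60.1. With normexp and loess the mean of this dim probe was 0.25. The probes of 1 gene thus gave opposite signs at MXD 1W, and with the mean over the probes of a gene the number of isoforms called higher was 0. Which probe follows the Myh2 messenger RNA was not tested.

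**Figure D2:**
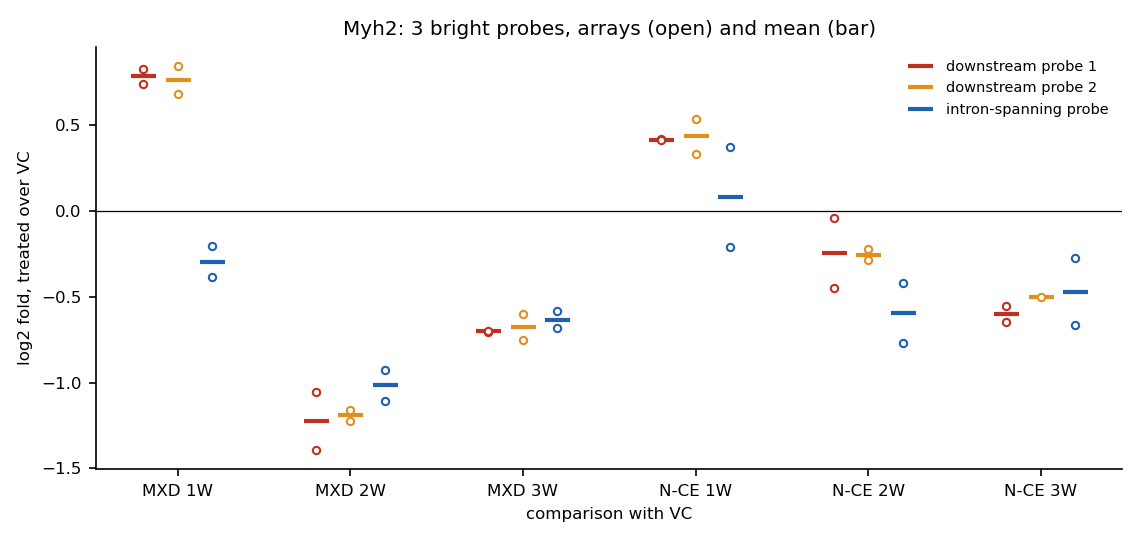
Log2 fold of Myh2 over VC (y axis) by its 3 bright probes in the 6 comparisons. Open circles are single arrays and bars their mean. At MXD 1W the 2 downstream probes lie at 0.79 and 0.76 and the intron-spanning probe at −0.30, while at MXD 2W and MXD 3W all 3 lie below 0.

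In the other weeks of MXD the 3 bright probes of Myh2 gave the same sign. At MXD 2W they read −1.22, −1.19 and −1.01, and at MXD 3W −0.70, −0.68 and −0.63, and every one of these was called lower. For the other genes with several bright probes, the second probe of Myh1 at MXD 2W was −1.34, that of Myh4 −1.42 and that of Myl1 −1.52. All 3 were called lower, as their brightest probes were.

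The level of Myh2 in each pool was read too. Levels are single-channel log2 intensities after background correction and normalization, and they are compared only within a probe. In the VC pool, the brightest Myh2 probe lay between 13.54 and 13.71 over 4 readings at 1W, between 13.89 and 14.63 at 2W and between 14.06 and 14.48 at 3W. The MXD pools lay between 14.30 and 14.52, 13.21 and 13.28, and 13.75 and 13.77 in the same weeks. By this brightest probe the VC pool was at its lowest at 1W, with readings that did not overlap those of either later week, and the MXD pool was at its highest. N-CE pools lay at 14.04 to 14.05, 13.84 to 13.86 and 13.43 to 13.67. The intron-spanning probe gave another order. Its VC readings were 10.87 to 11.16, 11.52 to 12.64 and 10.09 to 10.55 at 1W, 2W and 3W, the lowest at 3W, and its MXD readings were 10.50 to 10.98, 10.58 to 10.94 and 9.55 to 9.68, without a peak at 1W. Its N-CE mean was highest at 2W, at 11.50 against 11.12 at 1W and 10.07 at 3W. Week and slide coincide, so a difference between weeks and a difference between slides cannot be told apart.

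**Figure D3:**
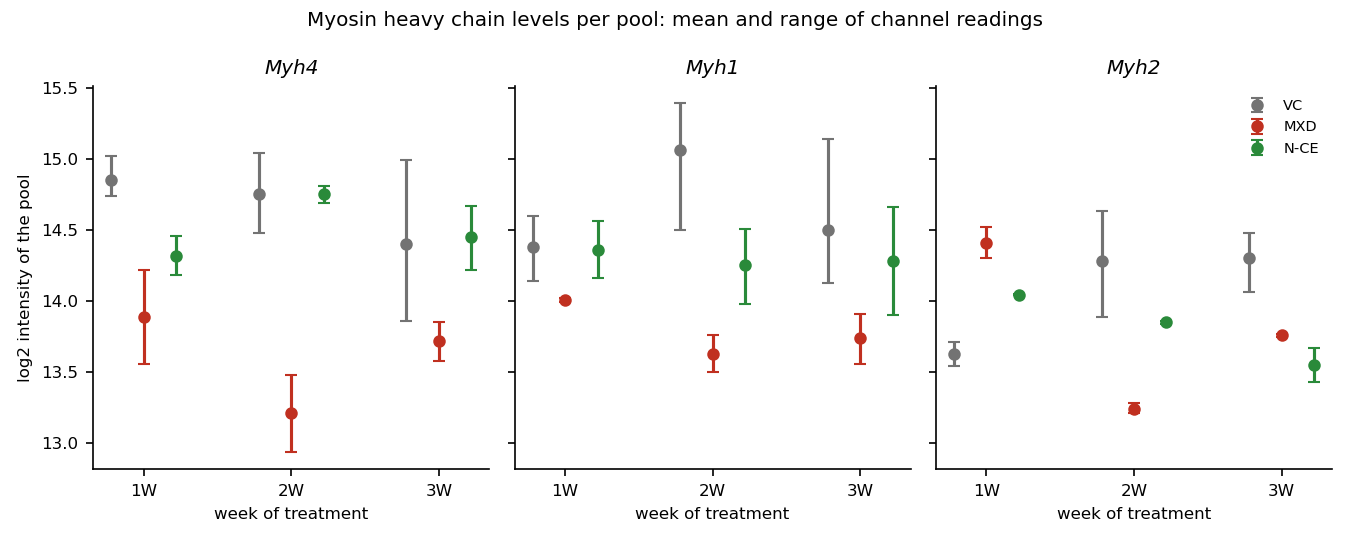
Single-channel log2 intensity (y axis) of the brightest probe of Myh4, Myh1 and Myh2 in the VC, MXD and N-CE pools at 1W, 2W and 3W. Dots are means and bars the range of the readings, 4 for VC and 2 for each treated pool. In the MXD pools Myh4 and Myh1 are below the VC mean in all weeks, while Myh2 is above it at 1W.

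Myh4 in the VC pool had readings of 14.74 to 15.02 at 1W, 14.48 to 15.04 at 2W and 13.86 to 14.99 at 3W, which overlap. In the MXD pools it read 13.56 to 14.22, 12.94 to 13.48 and 13.58 to 13.85, the lowest at 2W. These lay below the VC readings of the same week, but at 3W only just, with 13.85 against 13.86. Myh4 was not called at MXD 3W. Myh1 in the VC pool read 14.14 to 14.60, 14.50 to 15.39 and 14.13 to 15.14. Its MXD pools read 13.99 to 14.02, 13.50 to 13.76 and 13.56 to 13.91, again below all VC readings of the same week. As a guide to the error of a level, the same VC RNA on the MXD arrays and on the N-CE arrays of a week differed by −0.68 to 0.38 over the 10 genes, with medians of 0.14, 0.10 and −0.19 at 1W, 2W and 3W. Narrow gaps, such as that of Myh4 at 3W, lie within this error. The share of all probes whose readings separate like these, or like those of Myh2 above, was not counted.

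The heavy chains were also set against each other within an array. This comparison was chosen after the values were seen and is a description. The log2 ratio of Myh2 over Myh4 was higher with MXD than in VC at 1W by 1.89 ± 0.31 for the brightest probes. Over the 6 pairs of bright probes it was higher by 0.56 to 1.89. With N-CE at 1W the same ratio was higher by 0.86 ± 0.08, and by 0.53 to 0.91 over the pairs. At MXD 3W and N-CE 3W it was lower by 0.36 and 0.33. Myh1 over Myh4 was also higher at 1W, by 0.58 ± 0.14 with MXD and 0.54 ± 0.01 with N-CE. Over the 4 pairs of probes the range was 0.22 to 0.58 with MXD and 0.50 to 0.58 with N-CE. Both treatments share the VC pool of the week, whose own level enters each of these ratios, so they are not separate evidence of one another.

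At MXD 3W the isoforms were again lower as a set but by less, with a median of −0.45 ± 0.03 or 0.732-fold of VC against 0.002 for all gene names. Myh1 and Myh2 were called lower, 2 of 10, where 0.305% of 16394 gene names were called lower and 0.311% higher. Myh1 read −0.57 and −0.56 and Myh2 read −0.70 on both arrays. The remaining 8 genes had means between −0.53 and −0.17, each below 0 on both arrays. Actn3 was the nearest to VC, at −0.34 and −0.004. By fold and direction alone 6 of the 10 were lower at MXD 3W, where 2.14% of gene names were.

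N-CE gave smaller values. At 1W none of the 9 isoforms that could be tested was called, where 2.98% of 17013 gene names were called lower and 0.582% higher. The median was −0.20 ± 0.003, and the genes ran from Actn3 at −0.54 to Myh2 at 0.42. Myh2 read 0.42 and 0.41 with P of 0.044 and 0.047, and its intron-spanning probe read 0.38 and −0.21, with opposite signs on the 2 arrays. Myh1 read 0.15 and 0.06, whereas Myh4 read −0.39 and −0.50. By fold and direction alone 3 isoforms were lower at N-CE 1W, where 7.31% of gene names were.

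At N-CE 2W all 10 means were below 0, with a median of −0.40 ± 0.08. Myh1, at −0.60 and −0.75, was the 1 gene called lower, where 0.0814% of 17192 gene names were called lower and 0.128% higher. Its intron-spanning probe read −0.54 and −1.25 and was called too. Myh4 lay nearest to VC at −0.17 ± 0.03. At N-CE 3W all 10 means were again below 0, with a median of −0.36 ± 0.03. Myh2, at −0.55 and −0.65, was the 1 gene called, where 0.241% of 16204 gene names were called lower and 0.241% higher. Without P 3 isoforms were lower in each of these weeks, beside 1.66% of gene names at N-CE 2W and 2.75% at N-CE 3W.

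MXD was below N-CE at 1W and 2W for most isoforms. The difference between the 2 log2 folds of a week, in which the shared VC pool cancels, was below 0 for 9 of 10 genes at 1W, where its median was −0.47. The median was −1.05 at 2W, where all 10 genes were below 0. By 3W the median was −0.08, and 7 of 10 genes were below 0. At 2W it ran from −1.19 ± 0.15 (SE over the arrays) for Myh4 to −0.76 ± 0.35 for Tnnt3. Myh2 stood at 0.37 ± 0.04 at 1W by its brightest probe and at −0.38 ± 0.31 by its intron-spanning probe, so its sign depends on the probe. At 3W the genes lay between −0.16 and 0.12, and of the 3 genes above 0, Actn3 at 0.12 ± 0.34 and Mylpf at 0.08 ± 0.09 lay within their error of 0 while Myl1 at 0.12 ± 0.02 did not. As each group is 1 pool, no test of these weekly differences over mice can be made.

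**Figure D4:**
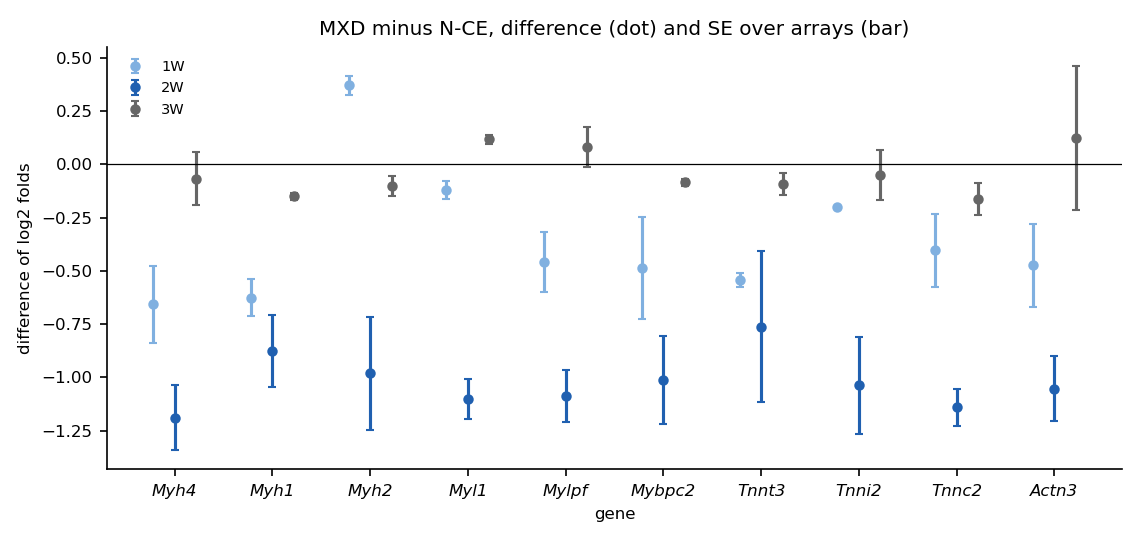
Difference between the log2 fold of MXD and that of N-CE (y axis) for each isoform at 1W, 2W and 3W. Dots are differences and bars the SE over the arrays; Tnni2 at 1W has no bar because 1 array of each comparison was left out. At 2W all 10 genes lie between −1.19 and −0.76, and at 3W between −0.16 and 0.12.

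A test over samples was possible only with the weeks standing in for replicates. With limma and Benjamini-Hochberg adjustment over 41174 probes, 0 were called for MXD at an adjusted p under 0.05, and 3104 had an unadjusted p under 0.05, among them 6 of the 17 probes of the isoforms. Tnnt3, for example, had a mean log2 fold of −0.80 ± 0.19 (SE, n = 3 weeks) with a limma adjusted p of 0.625. For N-CE 0 probes were called and 1503 had an unadjusted p under 0.05, among them 10 of the 17. Myl1 had a mean of −0.37 ± 0.02 with an unadjusted p of 0.001 and a Benjamini-Hochberg adjusted p of 1 in limma. For MXD minus N-CE 0 were called, 2026 had an unadjusted p under 0.05, and 1 of the 17 was among these. All of these unadjusted counts moved with the processing, as given at the end.

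Other genes of the fast fibre showed the same order of weeks. Of 20 partner genes, which serve calcium release, energy supply and the filaments, 15 were called lower at MXD 1W, 19 at MXD 2W and 2 at MXD 3W, with median log2 folds of −0.73, −1.39 and −0.44. Pygm, the muscle glycogen phosphorylase, fell by 1.08 and Ckm, the muscle creatine kinase, by 1.03 on the log2 scale at MXD 1W. Titin (Ttn) at −1.80 ± 0.51 and the muscle enolase Eno3 at −1.62 ± 0.41 were the lowest at MXD 2W, and Neb (nebulin) and Ttn were both called at MXD 3W at −0.80. None of the 20 was called with N-CE, with medians of −0.08, −0.42 and −0.31 at 1W, 2W and 3W.

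**Figure D5:**
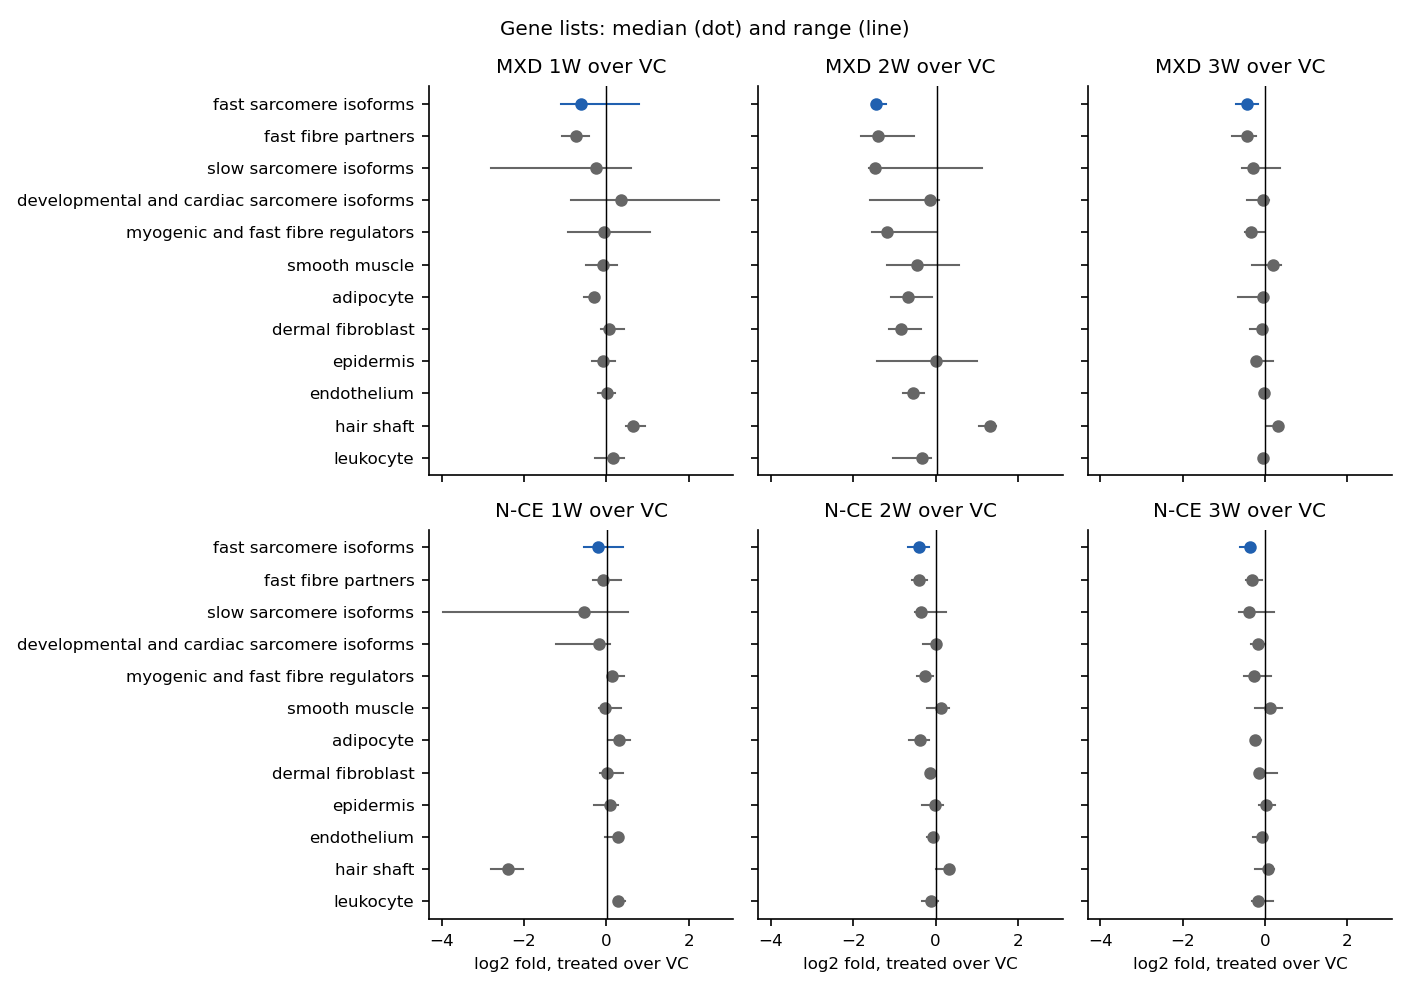
Log2 fold over VC (x axis) of the isoforms and 11 further gene lists in the 6 comparisons. Dots are medians over the genes tested, horizontal lines run from the lowest to the highest gene, and the vertical line is the median of all gene names tested. At MXD 2W the isoforms (median −1.45) and their partners (−1.39) lie far below the line, while the hair shaft keratins (1.33) lie above it. The slow isoforms (−1.48) and the myogenic and fast fibre regulators (−1.19) lie far below it too.

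The slow counterparts were less uniform, but at MXD 2W their median lay as low as that of the fast isoforms. Of 10 slow isoforms 4 were called lower at MXD 1W. Myh7 among these was not well above background in both groups and entered through VC, where it was higher, so its call supports nothing. Of 7 that could be tested at MXD 2W 4 were called lower, at −1.63 to −1.48. Among the 7, 1 was called higher, the slow inhibitory troponin Tnni1 at 1.14 ± 0.18. The median of the 7 was −1.48, beside −1.45 for the fast isoforms. With normexp and loess Tnni1 read 0.42, under the fold threshold. Myl2, the slow regulatory light chain, was called lower at MXD 1W at −2.28 ± 0.63, and read −0.96 with normexp and loess. Its probe was above background in 6 of 24 channels. Actn2, the alpha-actinin of all striated fibres, read −1.63 ± 0.28 at MXD 2W, close to Actn3. With N-CE at 1W 4 of 10 slow isoforms were called lower, but Myh7, Myl2 and Tnni1 were not well above background in both groups and entered through VC, where they were higher, so that count supports nothing. The remaining one, Tnnt1, the slow troponin T, read −0.76 ± 0.21. In the later weeks of N-CE 7 could be tested, of which 0 were called at 2W and 1, Mybpc1, at 3W.

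Some developmental forms and a regulator rose at MXD 1W. Myh3, the embryonic heavy chain that neighbours Myh2 on chromosome 11, rose by 2.75 ± 0.19 on the log2 scale, and Myl4, the embryonic light chain, by 0.88 ± 0.15, while Myh8, the perinatal heavy chain, was called lower at −0.86. With normexp and loess Myh3, whose probe was above background in 6 of 24 channels, read 1.33. Thus 2 of 7 developmental and cardiac forms were called higher and 1 lower. Myog (myogenin), a transcription factor of muscle differentiation, rose by 1.06 ± 0.08 at MXD 1W, the only one of 9 regulators called there. At MXD 2W 5 of 8 regulators were called lower, Myog at −1.36 ± 0.68 (−0.57 with normexp and loess) among them, as were 2 of 5 developmental forms, Myh8 at −1.59 and Myl4 at −0.59. With N-CE 0 genes of either list were called in any week.

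Markers of several other cell types were lower too at MXD 2W, and their part in the result was not tested. Of 8 adipocyte genes 5 were called lower, with a median of −0.68 and a range of −1.09 to −0.09. Dermal fibroblast genes were called lower in 3 of 8 with a median of −0.84, endothelial genes in 3 of 6 with a median of −0.55, smooth muscle genes in 3 of 8 with a median of −0.45, and leukocyte genes in 1 of 5 with a median of −0.34. The epidermal list did not move one way, with 3 of 8 genes called lower, 1 higher and a median of 0.02. Every one of these medians was nearer to VC than that of the isoforms. Of 7 hair shaft keratins all were called higher, at 1.06 to 1.46. At MXD 1W 0 genes of the adipocyte, fibroblast, endothelial, smooth muscle, epidermal and leukocyte lists were called, while 4 of 7 hair shaft keratins were higher. All genes of the epidermal, fibroblast, adipocyte, smooth muscle, endothelial and fast fibre partner lists on the array were well above background in every channel with a value, so skin and skeletal muscle RNA were both present in every pool.

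The surrounding lists were read with N-CE too. At N-CE 1W all 7 hair shaft keratins were called lower, at −2.81 to −2.02, where the isoform median was −0.20. Among the lists of other cell types, Lep (leptin) at N-CE 2W, at −0.66 ± 0.12, was the 1 further gene called with N-CE. The adipocyte list had medians of −0.38 at N-CE 2W and −0.23 at N-CE 3W with all 8 genes below 0 in both weeks, beside −0.40 and −0.36 for the isoforms, while at N-CE 1W it stood at 0.31 with 0 of 8 below 0. Its part in the result was not tested.

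The genes whose values were most like the isoform median over the 12 arrays, by the root mean square difference of log2 folds among 21389 bright probes, were Hrc (0.085), Myl3, Myadml2, Jph1, Tpm1, Ttn, Tmem38a, Nrap, Srl and Cacna1s (0.132). Hrc, a calcium-binding protein of the sarcoplasmic reticulum, read −0.69, −1.52 and −0.50 with MXD and −0.19, −0.45 and −0.43 with N-CE at 1W, 2W and 3W. Of these 10, where Ttn entered by another probe than in its list, Tpm1, Ttn and Cacna1s belong to the partner list and Myl3 to the slow list. Among the isoforms themselves this difference was smallest for Tnnc2 at 0.063 and largest for Myh2 at 0.676.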

How the data were processed

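Whole back skin RNA was measured on 12 two-colour arrays. Ratios were obtained by the authors from the scans in Agilent Feature Extraction, version 12.0.3.1 in the file headers and 11.0.1.1 in the submitters' processing notes. The deposited log10 ratio of Cy5 over Cy3, the deposited p-value of its error model and the deposited signal intensity of each channel follow the authors' background subtraction and dye normalization. A series table deposited by the authors holds the log10 ratio of the processed Cy5 intensity over the processed Cy3 intensity. It is not the same as the deposited log10 ratio for every probe. Array positions are on mm9.

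Controls were excluded, as were spots flagged by the software as outliers, ratios were turned to treated over VC as log2, copies of a probe were averaged and the 2 arrays of a dye swap were averaged as 1 replicate. The fold and P thresholds are those of the study's methods. Shares of all gene names used the brightest probe of each name, measured on both arrays and well above background in at least 1 group. This set of features was settled after values of the isoforms had been seen. The isoforms and gene lists were chosen with earlier results of these data known. Named genes are the 10 isoforms, the 10 gene names closest to their median, and mostly at most 2 genes of largest change per list and comparison above background in both groups. A gene that the rule gives is not reported here. Tnni1 at MXD 2W and Myh8 at MXD 1W fall outside that rule and were named after their values were seen. The sequences shown and the comparison of the heavy chains with each other were also chosen then.

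Levels came from normexp (offset 50), loess and Aquantile. The fits used limma 3.58.1 in R 4.3.3 on all probes with a value in at least 2 weeks, on weekly log2 folds. Other steps used Python 3.11.15, numpy 2.4.6, pandas 2.3.3 and scipy 1.17.1. Calls and fits were tested on simulated data. There the fits over weeks missed most or all shifts about as large as the isoform median at MXD 2W. A lack of calls in these fits therefore does not show a lack of change. The number of arrays, 2 per comparison, limits the precision. Alternatives covered the P criterion, folds, background correction, dim probes, probe averaging, outlier spots, the series table, centring, single arrays and single weeks.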

Additional observations from a re-analysis of the deposited data

Results flagged for a closer look

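Some isoforms had both arrays of one comparison above 0 and both arrays of another below 0. Each group is 1 pool, so these differences were not tested. For Myh2 the log2 fold with MXD was higher at 1W than at 2W by 2.01 and than at 3W by 1.49, and with N-CE it was higher at 1W than at 2W by 0.66 and than at 3W by 1.02. These values are of its brightest probe. The intron-spanning probe of Myh2 read −0.30, −1.01 and −0.63 with MXD at 1W, 2W and 3W and did not change sign, and with N-CE at 1W its 2 arrays had opposite signs. For Myh1 the log2 fold with N-CE was higher at 1W than at 2W by 0.78 and than at 3W by 0.52. At 1W the log2 fold of Myh1 with MXD minus that with N-CE was −0.63.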

How the results depend on the processing

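The 10 calls at MXD 2W and every sign of the isoform medians held under all alternatives run, and the counts at MXD 1W, MXD 3W and N-CE did not. By fold and direction without P, the isoforms called lower were 8 at MXD 1W, 6 at MXD 3W and 3 in each week of N-CE. With normexp and loess, which also has no P, they were 8, 6, 3, 4 and 4 at MXD 1W, MXD 3W, N-CE 1W, N-CE 2W and N-CE 3W, and the N-CE 1W median was −0.26. With the mean over the probes of a gene, 0 were higher at MXD 1W, 1 was lower at MXD 3W and 0 at N-CE 3W. With symmetric folds, 1 was lower at MXD 3W. Keeping outlier spots gave a median of −0.19 at N-CE 1W. Single arrays called 5 to 7 lower at MXD 1W, 2 to 3 at MXD 3W, 1 at N-CE 1W, 1 to 3 at N-CE 2W and 2 at N-CE 3W. Their medians were −0.76 to −0.50, −1.52 to −1.37 and −0.47 to −0.43 at MXD 1W, 2W and 3W, and −0.21 to −0.20, −0.43 to −0.32 and −0.39 to −0.34 with N-CE. Centring on all probes changed nothing, since the median ratio of every array was 0. Centring the weeks on bright probes, chosen after seeing the data, again gave 0 calls in the fits. It moved the isoform probes with an unadjusted limma p under 0.05 from 6 to 12 for MXD. For N-CE they moved from 10 to 11, and for the difference from 1 to 2.

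Chosen after seeing the data, a median without Myh2 was −0.60 at MXD 1W, and over all probes in place of gene names the share called lower at MXD 2W was 5.82%, beside 15 of 16 isoform probes. The limma fits called 0 isoform probes in every alternative, with a lowest Benjamini-Hochberg adjusted p among them of 0.438 to 0.686 for MXD, 0.404 to 1 for N-CE and 0.406 to 0.938 for their difference. Without the replicate block by week, the difference again gave 0 isoform probes, with a lowest adjusted p of 0.835 in limma. Unadjusted counts were less stable. For MXD, 2 to 14 isoform probes had an unadjusted limma p under 0.05 over the alternatives. For N-CE they were 3 to 13, and for the difference 0 to 10. Over all probes the counts ran from 1802 to 3508, 303 to 4994 and 1332 to 4995. Pools of 1 per group leave the spread between mice unmeasured.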
